A study of Mus musculus with 9 samples.

Results

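Immediate-early genes were followed across 9 Affymetrix arrays of mouse tissue: Fos, Fosb, Jun, Junb, Egr1, Egr2, Atf3, Ier2 and Dusp1. The 9 genes were taken by name, together with every probe set that the platform annotation gives to one of them alone, which made 14 of the 12422 probe sets that are not controls and 9 of the 8251 genes that carry such a probe set. The arrays held biotin-labelled RNA of adult cornea from mice 7 weeks old (3 arrays), cornea of postnatal day 10, called P10 (2 arrays), adult lens (2 arrays) and adult flexor digitorum longus tendon (2 arrays), with lens and tendon also taken at 7 weeks. The labels name no strain, genotype or treatment. Corneas were cut free of the limbus and scraped, after which some epithelium was still present, and their source is labelled corneal stroma, while lenses and tendons were pooled before RNA was made. Each array was an independent RNA preparation, so p-values measure the spread between preparations.

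Immediate-early genes are transcribed within minutes of a stimulus, such as a growth factor, stretch, wounding or stress, without new protein synthesis. Kinase cascades act on factors already bound at their promoters, among them serum response factor with its Elk partners at CArG boxes and CREB at cAMP response elements (CREs). Fos and Jun proteins pair to form the transcription factor AP-1, Egr proteins are zinc finger transcription factors, and Dusp1 is a phosphatase that shuts the kinases off again. Their RNA is short-lived and can rise while tissue is being dissected. The corneas here were scraped before extraction, and the sources used here do not give the time from death to extraction. A response to handling and a difference between the tissues in the animal therefore cannot be told apart.

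Values are deposited expression indices in arbitrary units, on a linear scale. The median index of an array lay between 67.6 and 88.0. The summed lens and tendon markers were highest on the arrays of those tissues, and the summed epithelial and stromal markers on the corneas. Single markers differed from these sums: Krt5 of the epithelium was 62.0 to 141.7 on corneas, within which both lenses and both tendons lay. Among stromal markers, Ptgds was 502.5 and 1051.7 on lenses, against 302.8 to 458.5 on adult corneas, and Dcn was highest on the tendons. Aldh3a1 was the largest part of the stromal sum on the corneas (5873.8 to 7563.5) and was below 0 on both tendons. Without it the stromal sum of the corneas would not exceed that of the tendons. The 7 lens markers measured here summed to 33863.3 and 35264.1 on the lens arrays, against 531 to 578 on the tendon arrays, where Crybb2 and Cryba1 were at or below 0. The 8 skeletal muscle markers summed to 35341.5 and 42113.5 on the tendon arrays, against 323 to 994 on all others. On the cornea arrays the lens markers summed to 4715 to 8573, and the 8 markers of corneal epithelium to 16202.5 to 18164.6, against 2289 and 2794 on the lens arrays. Adult cornea replicate 1 stood apart in a measure of RNA quality, with a 3′ to 5′ ratio of the Gapdh control of 2.25, while the ratio elsewhere was 0.831 to 1.04. In such bulk samples, fewer cells of a type and less RNA per cell cannot be told apart. The cornea arrays had served an earlier study, so a batch and the tissue cannot be told apart in any comparison of cornea with lens or tendon.

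The stretches just upstream of 7 of the 9 genes were in the RefSeq promoter table (build GRCm38.p6). The windows of 5 genes, which carry most of the tissue differences below, are shown 5′ to 3′, with motif matches in capitals. Each holds the 250 bases before the annotated transcript start. The window of Atf3 is not shown. Nor is that of Jun, which also had called tissue differences and held no motif match. For Egr2, which has 5 annotated starts, 1 window is shown.
Fos (chr12:85473640-85473889, plus strand): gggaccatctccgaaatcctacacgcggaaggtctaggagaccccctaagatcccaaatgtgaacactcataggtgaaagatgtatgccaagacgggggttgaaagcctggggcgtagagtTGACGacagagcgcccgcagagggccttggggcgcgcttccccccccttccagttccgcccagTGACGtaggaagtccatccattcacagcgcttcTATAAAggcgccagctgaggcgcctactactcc
Fosb (chr7:19310046-19310295, minus strand): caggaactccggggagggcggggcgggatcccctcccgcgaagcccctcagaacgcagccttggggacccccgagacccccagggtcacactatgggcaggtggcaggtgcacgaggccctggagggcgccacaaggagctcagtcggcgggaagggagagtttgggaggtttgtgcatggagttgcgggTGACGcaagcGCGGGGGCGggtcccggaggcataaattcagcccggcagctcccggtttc
Junb (chr8:84978749-84978998, minus strand): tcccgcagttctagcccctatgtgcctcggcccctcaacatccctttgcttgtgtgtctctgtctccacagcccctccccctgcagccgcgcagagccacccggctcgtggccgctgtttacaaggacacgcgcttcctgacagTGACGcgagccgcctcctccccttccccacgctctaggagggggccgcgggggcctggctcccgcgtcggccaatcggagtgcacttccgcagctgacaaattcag
Egr2 (chr10:67537619-67537868, plus strand): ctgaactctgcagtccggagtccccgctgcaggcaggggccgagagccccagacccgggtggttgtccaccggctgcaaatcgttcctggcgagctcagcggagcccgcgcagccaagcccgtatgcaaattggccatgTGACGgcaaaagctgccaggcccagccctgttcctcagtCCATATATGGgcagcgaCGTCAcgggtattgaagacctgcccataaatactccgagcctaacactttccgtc
Dusp1 (chr17:26508473-26508722, minus strand): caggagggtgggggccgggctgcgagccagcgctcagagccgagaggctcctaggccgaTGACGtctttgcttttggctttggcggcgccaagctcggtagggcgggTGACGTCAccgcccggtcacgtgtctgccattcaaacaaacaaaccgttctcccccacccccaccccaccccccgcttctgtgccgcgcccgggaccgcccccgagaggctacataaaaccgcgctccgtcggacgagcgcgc
Motifs were searched on both strands: the CRE (TGACGTCA), its core (TGACG, which is part of the CRE), the AP-1 site (TGANTCA), the EGR site (GCGNGGGCG), the CArG box and the TATA box (TATAAA). Fos holds CRE cores at positions -129 to -125 and -66 to -62 and a TATA box at -33 to -28, counted back from the start. Egr2 holds a CArG box at -72 to -63 between CRE cores at -111 to -107 and -55 to -51. Dusp1 holds the complete CRE at -143 to -136 and a further core at -191 to -187. Fosb holds a CRE core at -60 to -56 and an EGR site at -50 to -42, and Junb a CRE core at -106 to -102.

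A CRE core was found in 6 of the 7 genes, Atf3 included and Jun not, against 17.9% of 32526 RefSeq windows of the same length. For Egr2, any of its windows counted, and 3 of the 5 held one. The complete CRE was found in 1 of the 7 genes, against 1.56% of windows, and the CArG box in 1 (Egr2), against 1.48%. The TATA box was found in 1 (Fos), against 12.3%, the EGR site in 1 (Fosb), against 4.74%, and the AP-1 site in 0, against 6.73%. A match describes the letters of the window, and no binding was measured. Promoters of Ier2 and Egr1 were not used here.

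**Figure D1:**
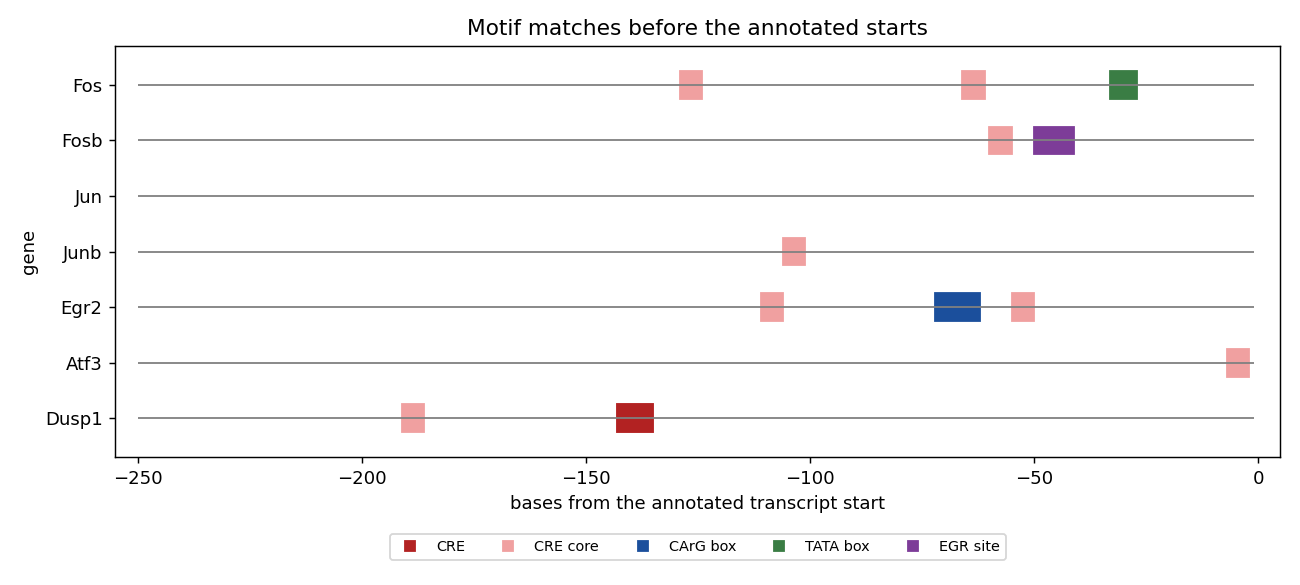
Motif matches in the 250 bases before the annotated start of 7 genes, one row per gene, with the distance from the start in bases on the x axis and coloured boxes for the matches, Egr2 by the window printed above. CRE cores are in 6 of the 7 rows, the complete CRE only in the Dusp1 row among these 7, and the CArG box in the Egr2 row.

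Before testing, values at or below 0 were set to 0, 16 was added and log2 was taken, so differences and folds are on the log2(index + 16) scale and understate changes of low probe sets. Testing was limited to probe sets at or above the median index of the array on 2 or more arrays. Of the 14 member probe sets 10 were tested, covering all 9 genes, and 4 were not: the second probe sets of Fos and Egr1 and 2 of the 3 of Atf3. Egr1 reached the median on 3 arrays, adult cornea replicate 2 and both tendon arrays, and Junb 102363_r_at on 4 arrays, the adult corneas and P10 cornea replicate 1. Both passed the filter only through 1 group where they are high, tendon for Egr1 and adult cornea for this Junb probe set, so their differences from that group are no independent support. A call is an adjusted p under 0.05 in limma's moderated test, fitted to all 8154 tested probe sets and adjusted over them by Benjamini-Hochberg.

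Fos, the prototype immediate-early gene, gave indices of 208, 167 and 80.03 on the adult corneas, 127 and 98.5 on the P10 corneas, 60.2 and 19.0 on the lenses and 97.8 and 120.4 on the tendons (probe set 160901_at). The lens arrays were below all others, and the adult corneas spanned the P10 and tendon values. Fos was 3.06-fold higher in adult cornea than in lens (log2 1.61 ± 0.39 SE, limma adjusted p = 0.00647) and 2.48-fold higher in P10 cornea than in lens (log2 1.31 ± 0.43 SE, limma adjusted p = 0.0277). It was 2.41-fold lower in lens than in tendon (log2 -1.27 ± 0.43 SE, limma adjusted p = 0.0323). By mean level the order was adult cornea, P10 cornea, tendon and lens, and no pair among the first 3 was called (limma adjusted p = 0.546 to 0.963). All 3 calls were lost without lens replicate 2 (limma adjusted p = 0.0944, 0.240 and 0.263). The call for P10 cornea was also lost without either P10 array (limma adjusted p = 0.135 and 0.0609) and with median centring (0.0515), and that for lens against tendon without either tendon array (0.0832 and 0.148). The second Fos probe set, 161716_at, read 1.09 to 25.4 on the adult corneas, 11.4 and 17.8 on the P10 corneas, 4.47 and 5.30 on the lenses and 14.8 and 17.4 on the tendons. It was below the median of every array and was not tested.

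Fosb, a Fos relative that also pairs with Jun proteins, gave 291, 302 and 378 on the adult corneas, 342 and 342 on the P10 corneas, 205 and 154 on the lenses and 382 and 391 on the tendons. The lenses were again lowest, and their values did not overlap with those of any other group. Fosb was 1.75-fold higher in adult cornea than in lens (log2 0.80 ± 0.20 SE, limma adjusted p = 0.00676, but 0.0559 without lens replicate 2). It was 1.85-fold higher in P10 cornea than in lens (log2 0.89 ± 0.22 SE, limma adjusted p = 0.00691) and 2.08-fold lower in lens than in tendon (log2 -1.06 ± 0.22 SE, limma adjusted p = 0.00248). Both tendons lay above all corneas, by less than could be called (limma adjusted p = 0.359 for adult and 0.607 for P10 cornea).

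Jun, the partner of Fos in AP-1, gave 100.4, 83.2 and 43.1 on the adult corneas, 98.2 and 119 on the P10 corneas, 39.5 and 34.5 on the lenses and 104 and 86.3 on the tendons. Adult cornea replicate 3 lay just above the lenses, while the other corneas lay near the tendons. Jun was 2.35-fold higher in P10 cornea than in lens (log2 1.23 ± 0.30 SE, limma adjusted p = 0.00707), a call lost when P10 cornea replicate 2 was left out (0.0510). It was 2.09-fold lower in lens than in tendon (log2 -1.07 ± 0.30 SE, limma adjusted p = 0.0143), a call lost without lens replicate 2 (limma adjusted p = 0.0775) or tendon replicate 1 (0.0935). The difference between adult cornea and lens just passed (log2 0.73 ± 0.28 SE, limma adjusted p = 0.0469) and was lost in 15 of 19 alternatives, among them the fits without adult cornea replicate 1 (0.141), adult cornea replicate 2 (0.101) or any array of another group (0.0647 to 0.194). Without adult cornea replicate 3 it was log2 1.02 (limma adjusted p = 0.00202).

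Junb, a Jun family member that often restrains growth-promoting AP-1, had the largest differences from lens among the member probe sets. Its probe set 102362_i_at gave 232, 345 and 170.5 on the adult corneas, 303 and 225 on the P10 corneas, 65.1 and 44.03 on the lenses and 347 and 318 on the tendons. Its probe set 102363_r_at gave 130.1, 188 and 100.9 on the adult corneas, 94.2 and 82.8 on the P10 corneas, 23.8 and 12.7 on the lenses and 48.9 and 60.2 on the tendons. Both placed the lenses below every other array. Adult cornea was 3.67-fold above lens by the first (log2 1.87 ± 0.28 SE, limma adjusted p = 0.000370) and 4.48-fold by the second (log2 2.16 ± 0.26 SE, limma adjusted p = 7.40e-05). P10 cornea was 3.98-fold and 3.09-fold above lens (limma adjusted p = 0.000518 and 0.00103). Lens was 4.99-fold and 2.08-fold below tendon (limma adjusted p = 0.000159 and 0.0108), and the second of these calls was lost without lens replicate 2 (0.0868) or tendon replicate 2 (0.0783).

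The Junb probe sets disagreed about cornea and tendon. By 102363_r_at adult cornea was 2.15-fold above tendon (log2 1.11 ± 0.26 SE, limma adjusted p = 0.00745, but 0.0791 without tendon replicate 1), while by 102362_i_at it was below tendon without a call (log2 -0.44 ± 0.28 SE, limma adjusted p = 0.262). P10 cornea lay on the same sides (log2 0.57 ± 0.28 SE and -0.33 ± 0.31 SE, limma adjusted p = 0.166 and 0.479). On this platform the suffixes i and r mark probe sets that did not meet all of the maker's design rules. No direction between cornea and tendon can therefore be given for Junb.

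**Figure D2:**
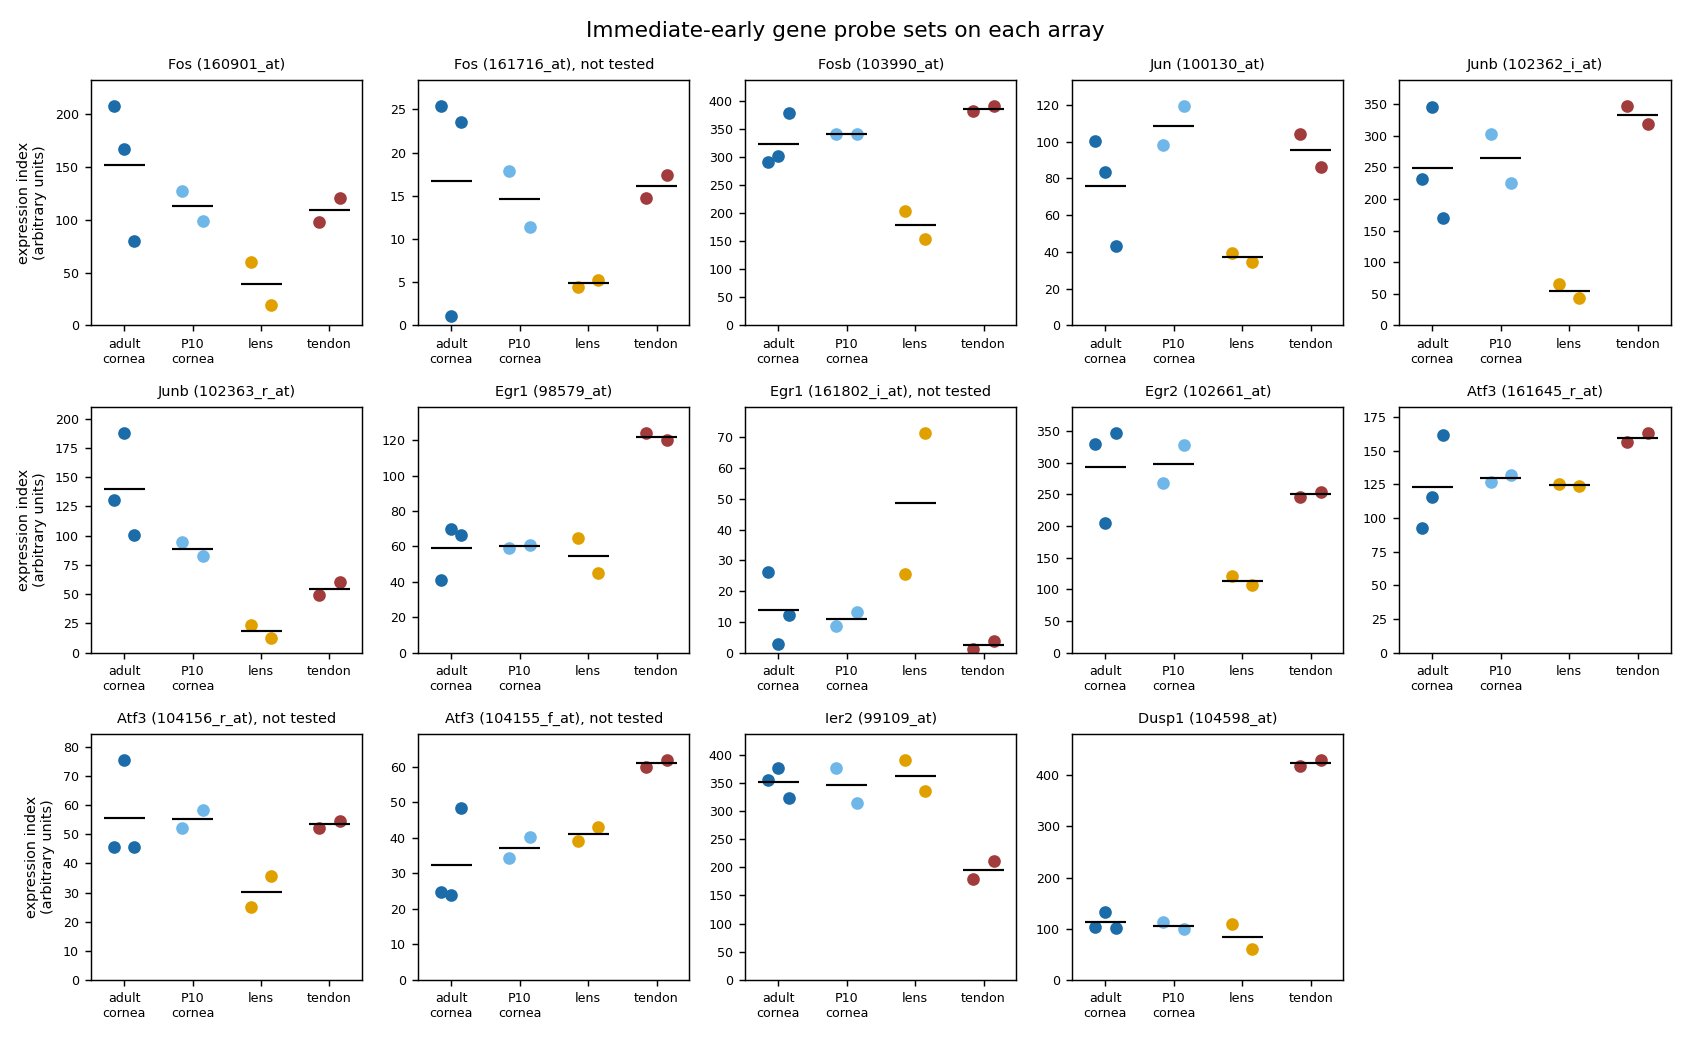
Expression index (arbitrary units, linear, from 0) of the 14 probe sets on each of the 9 arrays, one panel per probe set, with a point per array and a bar at the group mean. The lens points are lowest for Fos (160901_at), Fosb, Jun, both Junb probe sets and Egr2, the tendon points are far above the rest for Dusp1 and below the rest for Ier2.

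Egr2, a zinc finger factor best known for Schwann cell and hindbrain development, gave 329.5, 206 and 347 on the adult corneas, 268 and 327 on the P10 corneas, 120.4 and 106 on the lenses and 246 and 254 on the tendons. The lenses were below all others, and the tendons lay within the range of the adult corneas. Egr2 was 2.35-fold higher in adult cornea than in lens (log2 1.23 ± 0.24 SE, limma adjusted p = 0.00176) and 2.42-fold higher in P10 cornea than in lens (log2 1.27 ± 0.26 SE, limma adjusted p = 0.00271). It was 2.06-fold lower in lens than in tendon (log2 -1.04 ± 0.26 SE, limma adjusted p = 0.00771). These 3 calls held in all 19 alternatives fitted with limma (adjusted p up to 0.0201, 0.0281 and 0.0499).

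Beside the lens differences of Fos, Fosb, Jun, Junb and Egr2, markers of other cells also differed between the lens arrays and the rest. The 8 leukocyte markers summed to 2516.7 and 2614.4 on the lens arrays, against 557 to 1266 on all others. C1qa and C1qb carried that sum, at 662.1 to 749.8 and 1378 to 1570.8 on the lenses, against 51.6 to 100.4 and 39.0 to 138.7 on all others. Laptm5 was lowest on the lenses (122.4 and 122.6, against 219.8 to 401.2 on all others), and Lyz2 was at or below 0 there. The 5 stromal markers summed to 1180 and 2041 on the lens arrays, against 7526 to 14288 on all others, and the epithelial markers were also lower on lens than on cornea arrays. Their part in the lens results was not tested.

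Egr1, the founding member of the same family, had another pattern. Its probe set 98579_at gave 41.0, 70.0 and 66.7 on the adult corneas, 59.1 and 61.0 on the P10 corneas, 64.7 and 44.9 on the lenses and 124 and 120.0 on the tendons. The tendons were above all other arrays, and its values on corneas and lenses overlapped. By this probe set, Egr1 was 1.86-fold lower in adult cornea than in tendon (log2 -0.90 ± 0.23 SE, limma adjusted p = 0.0116), 1.81-fold lower in P10 cornea than in tendon (limma adjusted p = 0.0289) and 1.97-fold lower in lens than in tendon (limma adjusted p = 0.00852). The first call was lost without either tendon array (limma adjusted p = 0.0841 and 0.0699), and the second without either P10 array or either tendon array (0.114 to 0.146) and with a pseudocount of 1 (0.0501). The third was lost without lens replicate 2 (limma adjusted p = 0.0666) or tendon replicate 1 (0.0530). The other probe set of the gene, 161802_i_at, went the opposite way, at 25.7 and 71.4 on the lenses and 1.24 and 3.69 on the tendons, with 2.73 to 26.3 on the adult corneas and 8.70 and 13.1 on the P10 corneas. It reached the median on 1 array. With no filter on low values, its difference between lens and tendon was log2 1.71 ± 0.40 SE (limma adjusted p = 0.00613). It was then also lower in adult cornea and in P10 cornea than in lens (log2 -1.10 ± 0.36 SE and -1.17 ± 0.40 SE, limma adjusted p = 0.0335 and 0.0380). Probe set 161802_i_at was higher in adult and P10 cornea than in tendon without a call (log2 0.61 ± 0.36 SE and 0.54 ± 0.40 SE, limma adjusted p = 0.264 and 0.398). No direction between lens and any other tissue, or between cornea and tendon, can therefore be given for Egr1 as a gene.

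Atf3, a stress-induced factor of the ATF/CREB family, was the member whose tested probe set passed in no comparison. Probe set 161645_r_at gave 92.7, 116 and 162 on the adult corneas, 127 and 132 on the P10 corneas, 125 and 124 on the lenses and 156 and 163 on the tendons. The adult corneas spanned nearly the whole range. Probe set 161645_r_at carries the suffix r, so the limit given for the Junb probe sets holds here too. The largest difference was between adult cornea and tendon (log2 -0.36 ± 0.22 SE, limma adjusted p = 0.233), which fell to an adjusted p of 0.0358 without adult cornea replicate 3. The untested probe set 104155_f_at gave 24.6, 24.0 and 48.3 on the adult corneas, 34.2 and 40.2 on the P10 corneas, 39.1 and 42.9 on the lenses and 60.0 and 61.8 on the tendons. The untested 104156_r_at gave 45.7, 75.4 and 45.5 on the adult corneas, 52.4 and 58.3 on the P10 corneas, 24.9 and 35.6 on the lenses and 52.2 and 54.7 on the tendons. One thus had its highest values on tendon and the other its lowest on lens. With no filter on low values, 104155_f_at was lower in adult cornea than in tendon (log2 -0.71 ± 0.23 SE, limma adjusted p = 0.0482), and 104156_r_at passed in no comparison (limma adjusted p from 0.0533).

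Dusp1 encodes a phosphatase that inactivates the MAP kinases which switch immediate-early genes on. It gave 104, 132 and 100.8 on the adult corneas, 113 and 98.9 on the P10 corneas, 108 and 59.5 on the lenses and 417 and 429 on the tendons. Both tendon arrays were more than 3 times the highest of the others. Dusp1 was 3.44-fold lower in adult cornea than in tendon (log2 -1.78 ± 0.23 SE, limma adjusted p = 0.000220), 3.60-fold lower in P10 cornea (log2 -1.85 ± 0.26 SE, limma adjusted p = 0.000511) and 4.53-fold lower in lens (log2 -2.18 ± 0.26 SE, limma adjusted p = 6.58e-05). These calls held in all 19 alternatives fitted with limma (adjusted p up to 0.00470, 0.00797 and 0.00209). The differences between corneas and lens did not pass (limma adjusted p = 0.185 for adult and 0.307 for P10 cornea). Without lens replicate 1, both corneas passed as higher than lens (0.0277 and 0.0473). Without lens replicate 2 the P10 difference turned to log2 -0.031 (0.933).

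Ier2, a short immediate-early protein with roles in transcription, was lower in tendon than in each of the other tissues. It gave 356, 376 and 324 on the adult corneas, 376 and 315 on the P10 corneas, 390.0 and 336 on the lenses and 179 and 212 on the tendons. Corneas and lenses overlapped, and both tendons were below all of them. Ier2 was 1.74-fold higher in adult cornea than in tendon (log2 0.80 ± 0.19 SE, limma adjusted p = 0.00740), 1.71-fold higher in P10 cornea (limma adjusted p = 0.0195) and 1.79-fold higher in lens (limma adjusted p = 0.00643). Without tendon replicate 1 these calls were lost (limma adjusted p = 0.0961, 0.162 and 0.0669). The call for P10 cornea was also lost without tendon replicate 2 (0.0623), without either P10 array (0.165 and 0.0579) and with median centring (0.0521).

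Beside the tendon differences of Dusp1, which was higher there, and Ier2, which was lower, markers of other cells also differed between the tendon arrays and the rest. The probe sets of Egr1 went opposite ways between tendon and the other tissues. Besides muscle, the 3 adipocyte markers measured summed to 4269 and 4313 on the tendon arrays, against 34.4 to 133 on all others. The 6 vascular endothelial markers summed to 504 and 549 on the tendon arrays, against 198 to 390.5 on all others. Cdh5, Tek and Vwf were highest on the tendons, Kdr (166.8 and 176.8) lay within the range of the corneas, Tie1 was below its lens values, and Pecam1 was at or below 0 on both tendon arrays. The part of these cells in the tendon results was not tested.

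**Figure D3:**
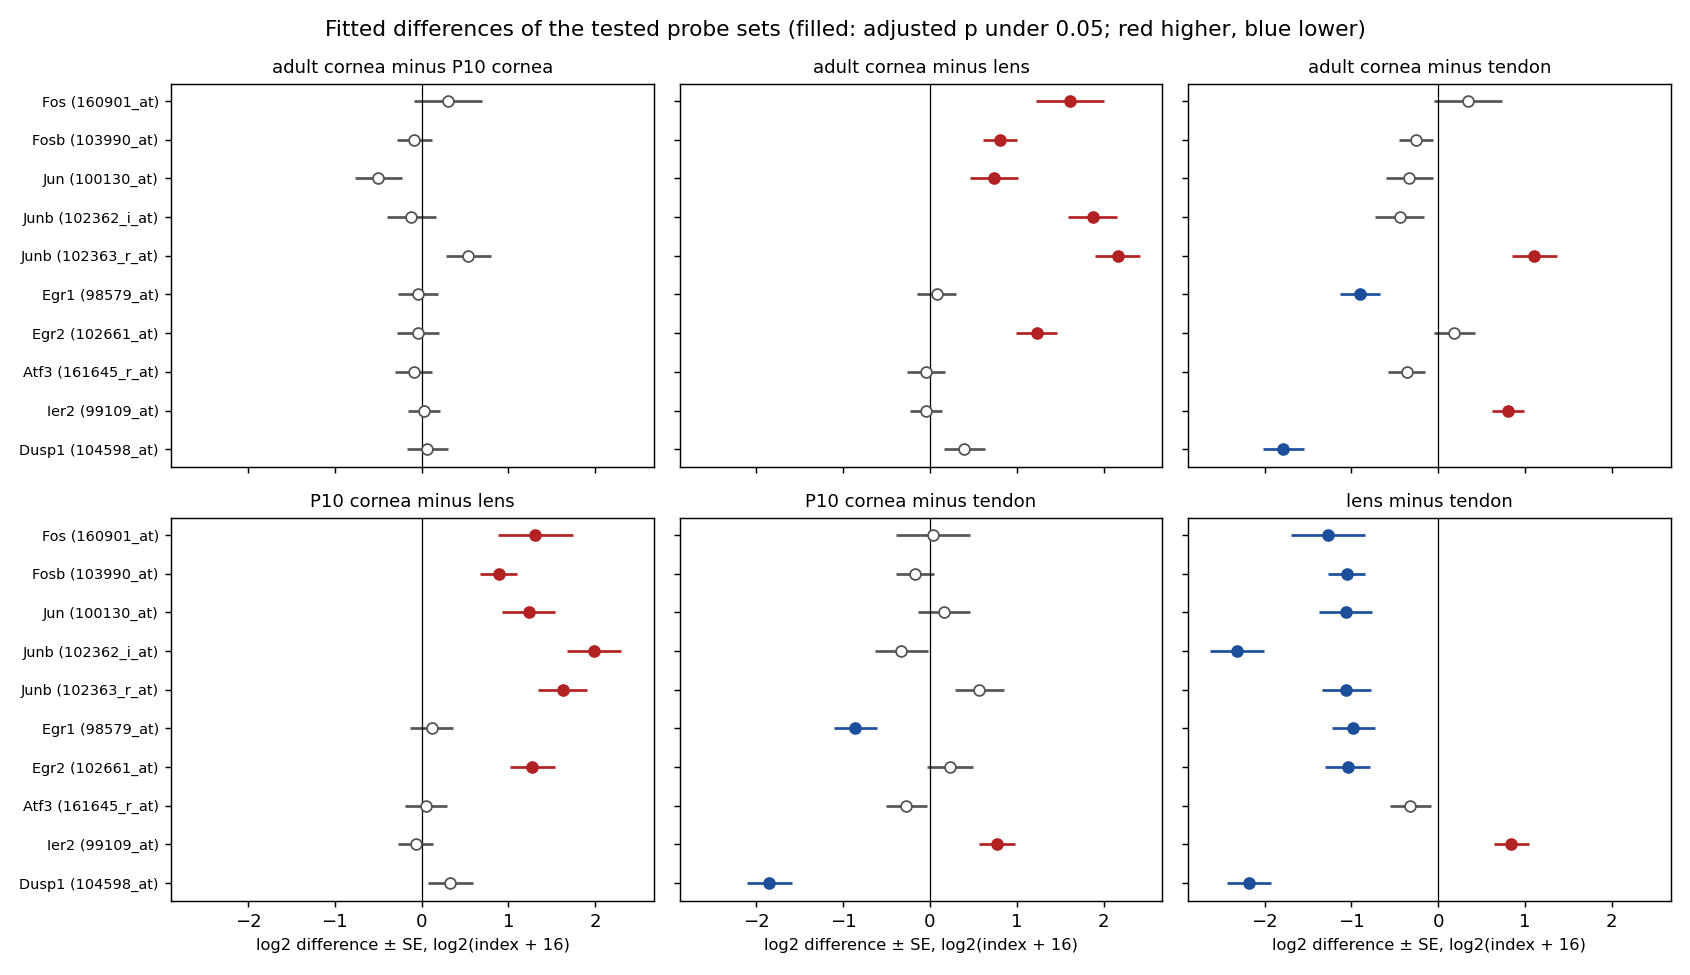
Fitted log2 differences ± SE, on the log2(index + 16) scale, of the 10 tested probe sets (rows) in the 6 comparisons (panels), with filled points for an adjusted p under 0.05, red for higher and blue for lower. No point is filled between the ages, 6 are red in each comparison of cornea with lens, and 8 are blue and 1 red between lens and tendon.

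Between adult and P10 cornea 0 of 10 member probe sets passed in limma, with 0 at an unadjusted p under 0.05 and 0 by the methods' t-test, against 4.57% of all tested probe sets called in limma, 0.699% higher and 3.88% lower. The methods' t-test called 141 of all 8154 tested probe sets. The median difference of the members was log2 -0.04, against -0.13 over all. In 1 of 10, the values of the ages did not overlap, Junb 102363_r_at (log2 0.54 ± 0.26 SE, limma adjusted p = 0.360), against 31.6% of all tested probe sets.

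Between adult cornea and lens 6 of 10 passed, all higher in cornea, against 51.2% of all tested probe sets called, 27.2% higher and 24.0% lower. The same count passed between P10 cornea and lens, again all higher in cornea, against 51.0% called, 31.6% higher and 19.4% lower. Between lens and tendon 9 of 10 passed, 8 lower and 1 higher in lens, against 49.0% called, 22.6% higher and 26.4% lower. Between adult cornea and tendon 4 of 10 passed, 2 in each direction, against 35.0% called, 16.1% higher and 18.9% lower. Of these 4, Junb 102363_r_at and Egr1 had passed the filter only through the group where they were high. Between P10 cornea and tendon 3 of 10 passed, 1 higher and 2 lower, against 26.7% called, 15.7% higher and 11.0% lower. The same limit holds for Junb 102363_r_at among the 6 for adult cornea against lens. It also holds for Egr1 among the 9 for lens against tendon and the 3 for P10 cornea against tendon. The comparisons share groups, so their counts are not independent of each other. Across the 4 groups together, 9 of 10 passed limma's moderated F test, all but Atf3, against 64.5% of all tested probe sets.

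Values of the groups did not overlap in 6 of 10 members between adult cornea and lens (63.9% of all tested probe sets) and in 7 of 10 between P10 cornea and lens (80.7%). They did not overlap in 5 of 10 between adult cornea and tendon (57.9%), in 8 of 10 between P10 cornea and tendon (76.7%) and in 10 of 10 between lens and tendon (78.9%).

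Median differences of the member probe sets were log2 0.77 for adult cornea minus lens, against 0.08 over all tested probe sets, and 1.06 for P10 cornea minus lens, against 0.25. For lens minus tendon the median was -1.06, against -0.07. For adult and P10 cornea minus tendon the medians were -0.29 and -0.07, against 0.01 and 0.13.

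The members differed in how much they varied between preparations of the same tissue. Fos had a within-group SD of 0.553 on the log2 scale, which put it at percentile 95.9 of all tested probe sets, whose median SD was 0.261. Jun and the Junb probe sets stood at percentiles 74.0, 76.9 and 64.4. Ier2 and Fosb lay at the other end, at percentiles 11.5 and 20.4 (SD 0.140 and 0.171). The 4 remaining probe sets, of Egr1, Egr2, Atf3 and Dusp1, stood between percentiles 38.6 and 52.4.

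Within the adult corneas the members did not move as a block. Fos, Jun and both Junb probe sets were lowest on replicate 3, by log2 -0.72, -0.57, -0.46 and -0.37 from their group means. On the same array Fosb, Egr2 and Atf3 were highest (0.22, 0.26 and 0.38). Replicate 1, with the high 3′ to 5′ ratio, was highest for Fos and Jun (0.50 and 0.40). It was lowest for Fosb, Egr1 and Atf3 (-0.14, -0.38 and -0.33), 3 of 10 member probe sets, against 20.8% of all tested probe sets. Replicate 3 was the lowest of the 3 adult corneas for 6 of 10 member probe sets, against 40.1% of all tested probe sets. On lens replicate 2 all 10 member probe sets were below lens replicate 1, by a median of log2 -0.39, against 65.5% of all tested probe sets and a median of -0.165. The part of RNA quality in these differences was not tested.

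**Figure D4:**
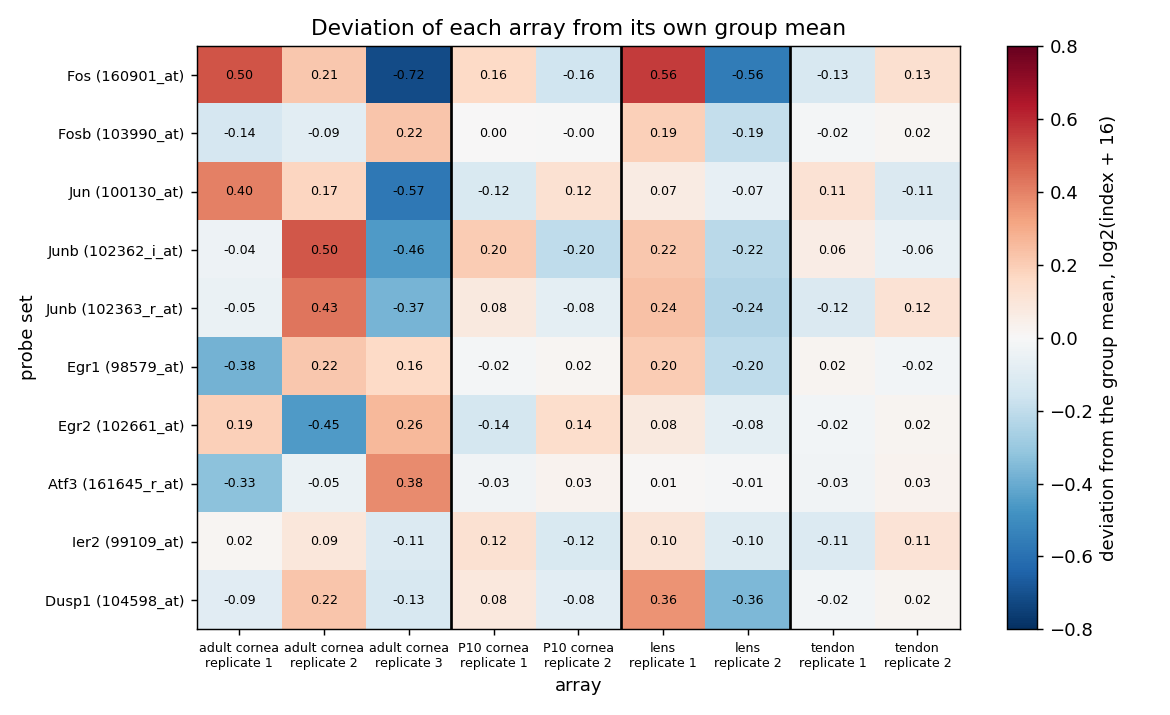
Deviation of each array (columns) from its own group mean, on the log2(index + 16) scale, for the 10 tested probe sets (rows), with red above and blue below the mean. Fos reads -0.72 on adult cornea replicate 3 and -0.56 on lens replicate 2, and Fosb, Egr2 and Atf3 are above their means where Fos, Jun and Junb are below in adult cornea replicate 3.

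A wider list of 50 further rapidly induced genes put the 9 in context. Of these, 45 were on the array and 37 were tested, with the probe set of highest mean index standing for a gene. Between adult and P10 cornea 1 of 37 passed in limma, beside 4.57% of all tested probe sets called, 0.699% higher and 3.88% lower. At an unadjusted p under 0.05 in limma there were 7. No share over all is given here for this or the other counts at an unadjusted p in limma. Those counts therefore cannot be set against a background. The gene that passed was Klf10, a Krüppel-like factor induced by TGF-beta, at 87.9, 65.7 and 60.8 on the adult corneas and 167 and 152 on the P10 corneas. It was 2.02-fold lower in the adult (log2 -1.02 ± 0.19 SE, limma adjusted p = 0.0151), but the call was lost when either P10 array was left out (limma adjusted p = 0.175 and 0.119) or the lens and tendon arrays were dropped from the fit (0.0745).

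Between adult cornea and lens, 15 of the 37 were higher and 12 lower, beside the 27.2% higher and 24.0% lower of all tested probe sets. Klf4, a factor of barrier epithelia, gave 1871, 1631 and 1599 on the adult corneas and 125 and 83.9 on the lenses, 14.4-fold higher in cornea (limma adjusted p = 5.63e-07). Zfp36l1, which speeds the decay of AU-rich RNAs, was 10.3-fold higher (489 ± 139, n = 3, against 33.8 ± 19.2, n = 2; limma adjusted p = 7.71e-06), and Mcl1, a survival factor of the Bcl2 family, 4.28-fold higher (limma adjusted p = 3.42e-05). In the other direction, Gadd45a, a DNA damage response gene, was 7.38-fold lower in adult cornea than in lens (limma adjusted p = 5.10e-05). Klf2, a factor induced by shear stress in endothelium, was 6.07-fold lower (limma adjusted p = 4.64e-06) and Pim1, a kinase of cytokine signalling, 5.12-fold lower (limma adjusted p = 2.79e-05). The P10 corneas gave 15 higher and 10 lower than lens, beside 31.6% and 19.4% of all. Among them Klf4, Zfp36l1 and Mcl1 were again higher, Gadd45a and Pim1 lower, and Dusp6, the ERK phosphatase, was 4.30-fold higher (limma adjusted p = 0.000606).

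The list also held the other relatives of Fos and Jun, Jund, Fosl1 and Fosl2, which are named here after their values were seen. Jund, a broadly expressed Jun protein, gave 1560.2, 1564.9 and 1325 on the adult corneas, 1311 and 1241.5 on the P10 corneas, 979.8 and 553.2 on the lenses and 2248.6 and 2635.6 on the tendons. It was higher in adult cornea than in lens (log2 0.99 ± 0.23 SE, limma adjusted p = 0.00474) and lower in lens than in tendon (log2 -1.70 ± 0.25 SE, limma adjusted p = 0.000298), the same directions as Fos and Jun. Its calls for P10 cornea against lens (limma adjusted p = 0.0250) and for adult and P10 cornea against tendon (0.0340 and 0.0215) were lost in 5, 9 and 5 of 19 alternatives, among them those without either P10 or either tendon array where these were compared (0.0737 to 0.216). The call for adult cornea against tendon was also lost without any 1 of the adult or P10 corneas (0.0504 to 0.0707), and that for P10 cornea against lens without lens replicate 2 (0.159). Fosl1, which lacks the activation domain of Fos, gave 90.4, 86.7 and 77.9 on the adult corneas, 64.9 and 73.1 on the P10 corneas, 200.1 and 243.3 on the lenses and 91.3 and 82.8 on the tendons. It ran the other way, 2.35-fold and 2.79-fold lower in adult and P10 cornea than in lens (limma adjusted p = 0.000265 and 0.000167) and 2.30-fold higher in lens than in tendon (0.000568). Fosl2 was 102 and 123.4 on the lenses, above all other arrays (56.3 to 85.9). It passed between lens and tendon (log2 0.70 ± 0.21 SE, limma adjusted p = 0.0192), a call lost without lens replicate 2 (0.0995) or tendon replicate 1 (0.146), and not for adult or P10 cornea against lens (0.0534 and 0.0515).

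Against tendon, 7 of the 37 were higher and 10 lower in adult cornea, and 5 were higher and 8 lower in P10 cornea. The shares over all 8154 were 16.1% higher and 18.9% lower for adult cornea, and 15.7% and 11.0% for P10 cornea. Ccn2, a matricellular target of stretch and TGF-beta signalling, gave 20.0, 31.3 and 25.5 on the adult corneas, 61.7 and 55.1 on the P10 corneas, 95.5 and 41.5 on the lenses and 620.1 and 765 on the tendons. It was 17.1-fold lower in adult cornea than in tendon (limma adjusted p = 1.84e-06) and 9.49-fold lower in P10 cornea (limma adjusted p = 3.07e-05). Cebpd, a factor of the acute-phase response, was 3.39-fold and 3.78-fold lower (limma adjusted p = 0.000192 and 0.000329). Ccn2, Cebpd and Ccn1 passed the filter only through the tendon, where they are high. Klf2 was 2.86-fold lower in adult cornea than in tendon (limma adjusted p = 0.000260). Klf4, Zfp36l1 and Tgif1, a repressor of TGF-beta signalling, were higher in both corneas. In adult cornea they were 4.66-fold, 2.56-fold and 2.30-fold above tendon (limma adjusted p = 2.03e-05, 0.00426 and 0.00421). In P10 cornea they were 3.49-fold, 2.82-fold and 2.59-fold above (limma adjusted p = 0.000273, 0.00604 and 0.00508), and without P10 cornea replicate 1 limma's adjusted p for Zfp36l1 and Tgif1 was 0.0515 and 0.0535. Dusp6 was 2.85-fold higher in P10 cornea (limma adjusted p = 0.00841), a call lost when P10 cornea replicate 1 (0.0758) or tendon replicate 1 (0.0817) was left out.

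Between lens and tendon, 10 were higher and 15 lower in lens, beside 22.6% and 26.4% of all tested probe sets. Ccn2 was 8.81-fold lower in lens (limma adjusted p = 1.55e-05), Ccn1, its close relative, 5.43-fold lower (limma adjusted p = 2.74e-05), Cebpd 5.25-fold lower (limma adjusted p = 2.83e-05) and Nfkbia, the NF-kappa-B inhibitor, 4.80-fold lower (limma adjusted p = 6.19e-05). Pim1 was 7.09-fold higher (limma adjusted p = 1.37e-05) and Gadd45a 4.68-fold higher (limma adjusted p = 0.000535). The medians of the wider list were log2 0.39 for adult cornea minus lens, -0.22 for adult cornea minus tendon and -0.58 for lens minus tendon, against 0.08, 0.01 and -0.07 over all tested probe sets.

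**Figure D5:**
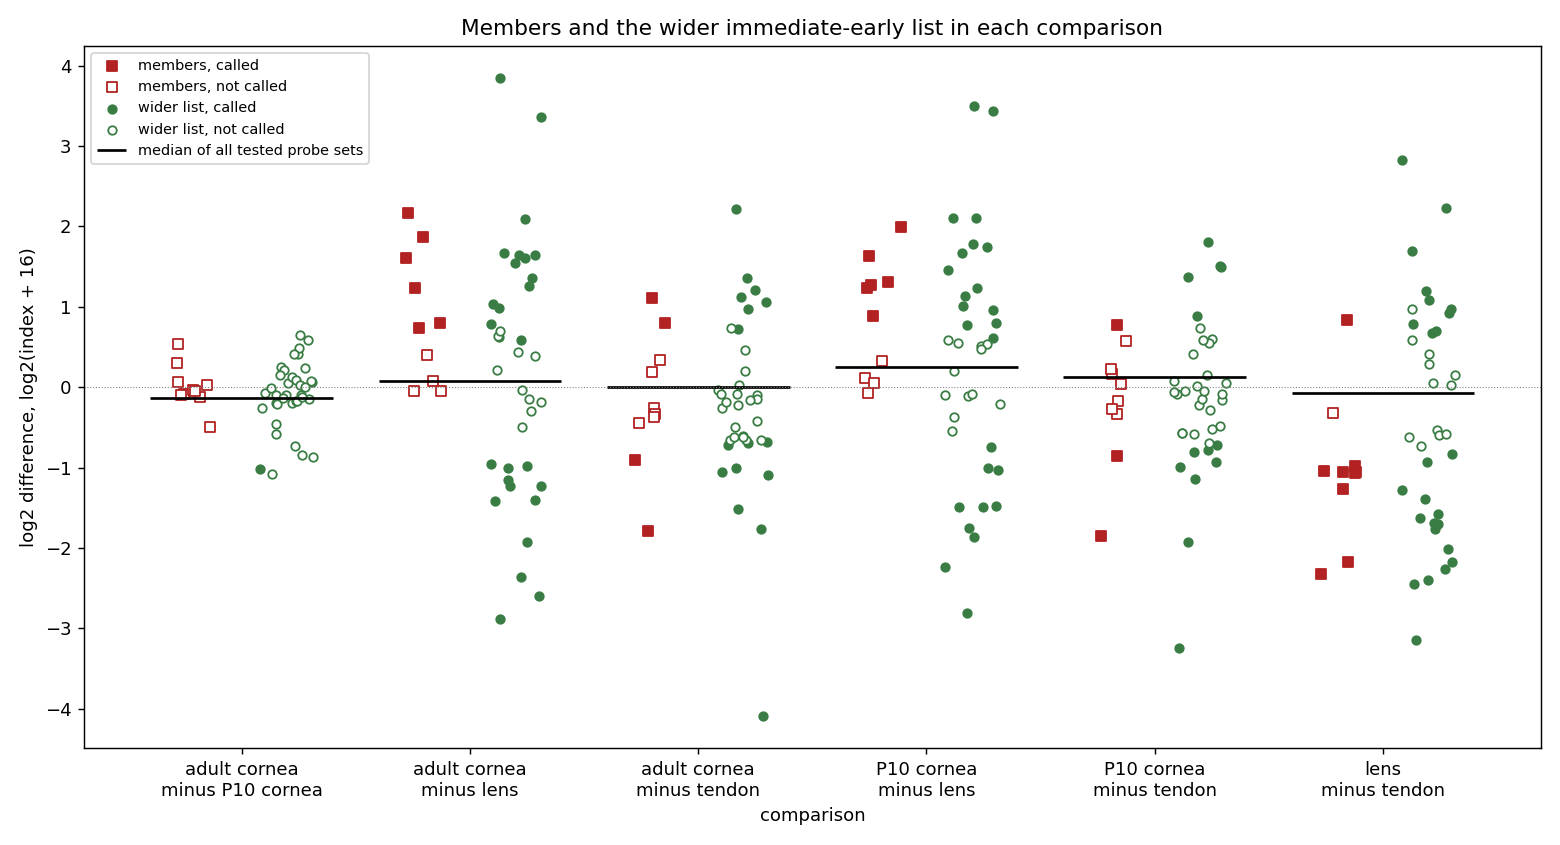
Log2 differences, on the log2(index + 16) scale, of the 10 member probe sets (red squares) and the 37 genes of the wider list (green circles) in the 6 comparisons, with filled symbols for an adjusted p under 0.05 and a line at the median of all tested probe sets. In adult cornea minus lens and P10 cornea minus lens, the called members all lie above the line, while the wider list has called genes above and below it.

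The kinases and promoter factors upstream of these genes were measured for 13 of 19 listed genes, of which 9 were tested. Against lens 2 were higher and 2 lower in adult cornea, and the same counts held for P10 cornea. Against tendon 2 were higher and 1 lower in adult cornea and 1 higher and 1 lower in P10 cornea, between lens and tendon 3 were higher and 1 lower in lens, and between the ages 0 passed in limma, with 1 at an unadjusted p under 0.05. The 4 of 9 called against lens stand beside 51.2% and 51.0% of all tested probe sets, the 3 and 2 against tendon beside 35.0% and 26.7%, and the 4 between lens and tendon beside 49.0%. Heat shock genes, which mark another response to stress and handling, had 11 tested genes. They went both ways against lens, with 3 higher and 5 lower in adult cornea and 3 higher and 4 lower in P10 cornea. Hspa1a, Hspa1b and Hsf2 were higher in both corneas, by 12.5-fold, 12.7-fold and 5.84-fold in adult and 9.91-fold, 13.15-fold and 7.05-fold in P10 cornea. Hsf2 was below 0 on the lens arrays. Dnajb1, Dnaja1, Hsp90aa1 and Hspe1 were lower, by 1.63-fold to 3.05-fold in adult and 1.74-fold to 2.86-fold in P10 cornea. Hspa8 was called lower only in adult cornea (2.47-fold). Against tendon 4 were higher and 0 lower in either cornea, and 5 were higher and 1 lower in lens. The shares of all tested probe sets called higher and lower were 16.1% and 18.9% for adult cornea, 15.7% and 11.0% for P10 cornea and 22.6% and 26.4% for lens against tendon, and 51.2% and 51.0% were called in the comparisons of adult and P10 cornea with lens. Between the ages 0 passed in limma, with 1 at an unadjusted p under 0.05. For both lists the 0 between the ages stands beside 4.57% of all tested probe sets called.

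The probe sets most like Fos and Egr1 were found by the mean absolute difference of log2 values over the 9 arrays, after each was centred on its own mean. Closest to Fos were Snx2 (0.119), Rnpepl1 (0.157), Dpm3 (0.161), Ube2r2 (0.164) and Mprip (0.165), against a median distance of 0.656 over all other named probe sets. Snx2 gave 317, 228 and 136 on the adult corneas, 271 and 172 on the P10 corneas, 103 and 45.5 on the lenses and 159 and 183 on the tendons, so it repeated the low adult cornea replicate 3 and the low lens replicate 2. None of the 5 is on the wider list. Closest to Egr1, by probe set 98579_at, were Ubac1 (0.115), Auh (0.115), Myf6 (0.119), Gfm1 (0.132) and Atp5mpl (0.132), against a median distance of 0.541. Probe set 98579_at passed the filter only through tendon, and the other Egr1 probe set went the opposite way between lens and tendon. The neighbours are therefore those of 1 probe set and not of Egr1 as a gene. Myf6, a muscle regulatory factor, gave 63.7, 95.3 and 82.6 on the adult corneas, 77.9 and 92.0 on the P10 corneas, 98.5 and 84.3 on the lenses and 168 and 202 on the tendons, and was highest on the arrays that carried the muscle markers. These probe sets were chosen by their nearness over the same arrays, so a pattern shared with Fos or Egr1 is fixed by the choice.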

How the data were processed

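The authors deposited a linear expression index (intensity in arbitrary units) per probe set. The series' design text names Microarray Suite 5.0 and then dChip with invariant-set normalization, and the submitters' processing notes name MAS5. The sources used here state neither a genome build nor which program gave the deposited intensity values. Detection calls were not used here. Symbols came from the platform annotation, updated through Entrez identifiers. No rescaling was done, since the highest array mean, trimmed at percentiles 2 and 98, was 1.171 times the lowest and the limit was 1.25. The fit, in limma 3.58.1 under R 4.3.3, had a mean for each group over the 9 arrays and an intensity-dependent prior for the variance. P-values were two-sided. The fit was tested on simulated data.

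The members and lists were chosen with earlier results of these data known. The text names all members, up to 6 called genes of the wider list per comparison with the largest difference, and the 5 probe sets closest to Fos and to Egr1. Chosen after their values were seen were Jund, Fosl1, Fosl2 and the heat shock genes named. The methods' t-test asked for a fold of 2, a difference of 100 and an unadjusted p under 0.05. Other alternatives were pseudocounts, filters, scalings, fits of only the groups compared, a replicate block, no variance trend and leaving out each array. The number of arrays limits the precision.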

Additional observations from a re-analysis of the deposited data

How the results depend on the processing

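Of 28 member differences called in limma, 13 kept their call in every alternative fitted with limma and 15 lost it in at least 1. These 13 were the Dusp1 differences from tendon, the Egr2 differences from lens, the Junb 102362_i_at differences of lens, the Junb 102363_r_at differences of lens from both corneas, and the Fosb differences of lens from P10 cornea and tendon. Junb 102363_r_at had passed the filter only through adult cornea, so its difference of lens from adult cornea is no independent support. Both Junb probe sets also carry the suffixes i and r, with the limit given for them above. A further 4 differences without a call gained one, and 1 turned its sign, Dusp1 in P10 cornea minus lens at log2 -0.031 without lens replicate 2 and 0.69 without lens replicate 1. The methods' t-test called fewer member probe sets (1 after Benjamini-Hochberg, in adult cornea against tendon): 1 for adult cornea against lens, 1 for adult cornea against tendon, 0 for P10 cornea against lens, 1 for P10 cornea against tendon and 3 for lens against tendon. Over all 8154 tested probe sets it called 1252, 1017, 1035, 628 and 1215 in the same order. Leaving out 1 array gave counts of 3 to 6 for adult cornea against lens, 1 to 5 for adult cornea against tendon, 4 to 7 for P10 cornea against lens, 1 to 3 for P10 cornea against tendon, 5 to 9 for lens against tendon, 6 to 9 for the F test and 0 to 0 between the ages. For the wider list, these counts were 0 to 3 between the ages, where quantile normalization gave 2, 23 to 29 for adult cornea against lens, 8 to 19 for adult cornea against tendon, 17 to 27 for P10 cornea against lens, 4 to 14 for P10 cornea against tendon and 19 to 29 for lens against tendon. The median percentile of the members' spread, 51.6 as reported, ran from 53.3 to 59.7. Leaving out arrays for the wider list and the spread was chosen after seeing the data. Where a fit left 1 array in a group, that array was assumed to vary like the other groups. In the comparisons of that group, calls over all tested probe sets fell as well.

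The replicate numbers of the titles were tried as a replicate block. Deviations of same-numbered arrays correlated at r = -0.160 to 0.166 across probe sets, which are not independent. There was no reference for the correlation of paired arrays, so whether the numbers pair the arrays is not settled. With the block, counts of member calls were 0 between the ages, 6 and 6 for adult and P10 cornea against lens, 4 and 3 against tendon and 9 for lens against tendon, and no member call changed. Adult cornea replicate 3 is alone in its block, so that fit in effect drops it. The median of all probe sets between the ages was log2 -0.13 as deposited and 0.06 after median centring, 0.02 after quantile normalization and 0.00 after scaling to trimmed means. The causes of lost calls were not tested. Low indices limit the second Fos and Egr1 probe sets, which lie below most array medians.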
